A study of Mus musculus with 30 samples.

Results

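SMARCA4 peaks were compared between untreated mouse embryonic stem cells and the same kind of cells after 12 h of CTCF degradation. The members are the peaks of 4 ChIP-seq libraries on chromosomes 1 to 19 and X, 361876 of the 1428564 peaks in the 20 peak lists analysed (4 of 30 samples). All 4 libraries come from the established line E14, with the genotype CTCF AID and biotin-SMARCA4. The AID tag makes CTCF unstable once the auxin IAA is added, and the 0 h cells carry it as well. The cells grew in a serum-free medium with LIF, the MEK inhibitor PD0325901 and the GSK3 inhibitor CHIR99021. The 0 h group was not given IAA and the 12 h group had IAA for 12 h, with 2 libraries each. Labels do not say whether the replicates were separate cultures or whether the line is 1 clone, so every p-value measures the spread between these samples only. CTCF, measured in CTCF AID cells without biotin-SMARCA4 and with 1 library per time, had 29926 peaks at 0 h and 2247 at 12 h. The series' title contrasts effects of CTCF on genes that do and do not depend on chromatin loops.

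SMARCA4, also called BRG1, is an ATPase of the SWI/SNF (BAF) complexes, which slide and evict nucleosomes and keep enhancers and promoters accessible. In embryonic stem cells the complex works with the pluripotency factors OCT4 and SOX2 at enhancers. CTCF reads a long DNA motif with its zinc fingers, positions the nucleosomes around it and stops the loop-extruding cohesin complex. CHD4, CHD8 and SMARCA5, which were measured in the same series, are ATPases of other remodeler families.

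A SMARCA4 region was the union of peaks of the 4 lists that share at least 1 bp. A region was called 0 h only when both 0 h lists and neither 12 h list had a peak in it, and 12 h only in the reverse case. The DNA under the strongest region of each class is shown first, once with and once without a 0 h CTCF peak, because these 4 sites lead their class by rank within those strata. Each sequence holds 201 bases of the plus strand of GRCm38 around the SMARCA4 summit, and capitals mark a match to the CTCF core. The core was searched on both strands as CC, any 3 bases, AG, an A or G, a G or T, and then GGC. The first region is nearest to Btf3, which encodes a subunit of the nascent polypeptide-associated complex, at chr13:98298661-98299302, in an intron of Gm21976. The Ano10 region, at chr9:122314244-122315841, lies between genes. The Akap7 region, at chr10:25218612-25220446, lies in an intron of that gene, which encodes an anchor of protein kinase A. The Gm21887 region, at chrX:170004256-170004618, lies in an intron of Mid1.
Btf3, 0 h only, with a CTCF peak, chr13:98299103-98299303: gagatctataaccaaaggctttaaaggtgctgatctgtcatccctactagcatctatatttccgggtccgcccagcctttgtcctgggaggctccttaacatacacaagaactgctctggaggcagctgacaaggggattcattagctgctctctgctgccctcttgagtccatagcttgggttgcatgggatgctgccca
Ano10, 0 h only, without a CTCF peak, chr9:122314935-122315135: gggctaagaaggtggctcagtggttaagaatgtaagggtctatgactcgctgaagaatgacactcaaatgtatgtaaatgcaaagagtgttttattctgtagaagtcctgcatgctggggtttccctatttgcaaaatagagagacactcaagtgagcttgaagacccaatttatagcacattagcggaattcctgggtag
Akap7, 12 h only, with a CTCF peak, chr10:25219274-25219474: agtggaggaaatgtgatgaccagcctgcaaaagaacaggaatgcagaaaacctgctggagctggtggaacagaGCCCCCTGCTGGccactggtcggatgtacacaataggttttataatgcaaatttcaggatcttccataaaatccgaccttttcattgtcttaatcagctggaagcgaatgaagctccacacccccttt
Gm21887, 12 h only, without a CTCF peak, chrX:170004336-170004536: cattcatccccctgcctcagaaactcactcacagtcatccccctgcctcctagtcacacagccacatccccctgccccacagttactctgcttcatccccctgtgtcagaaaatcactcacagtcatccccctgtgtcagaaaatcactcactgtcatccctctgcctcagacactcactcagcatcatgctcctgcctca
The SMARCA4 summit near Btf3 was 39 bp from the CTCF summit, and that in Akap7 was 14 bp from it. The Gm21887 sequence is made of short units that recur along the window and holds 0 CpG. No match to the core lies in the Btf3, Ano10 or Gm21887 window.

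The authors' lists held 92452 and 70427 SMARCA4 peaks at 0 h (replicates 1 and 2) and 96363 and 102634 at 12 h (replicates 1 and 2). They covered 90.3 and 63.6 Mb at 0 h and 89.9 and 95.7 Mb at 12 h. The 0 h replicate 2 list is the shortest and covers the least sequence. Its median fold enrichment was 4.09, against 3.82 in 0 h replicate 1 and 3.86 and 3.85 at 12 h. The lists give no read counts, so the depth is unknown, and a region without a listed peak may still hold SMARCA4 signal below the threshold.

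The 4 lists merged into 130082 SMARCA4 regions, of which 43495 (33.4%) had a peak in all 4 lists. The 0 h only class held 2090 regions, 1.61% of all, and the 12 h only class held 7369, 5.66% of all. Another 49175 regions had a peak in 1 list alone. Regions with 1 list of each time, a pattern that time does not explain, numbered 11065, and the 4 such pairs ranged from 754 to 6095 regions. The 0 h only count lies inside that range and the 12 h only count lies above it. Replicates of a time did not share more peaks than libraries of different times in every case. Of the peaks of 0 h replicate 1, 59.8% were overlapped in 0 h replicate 2, the shortest list, but 71.6% and 75.1% in the 12 h lists. In the other direction, 85.7% of the peaks of 0 h replicate 2 were overlapped in 0 h replicate 1, against 85.1% and 83.5% in the 12 h lists. Of the peaks of 12 h replicate 1, 77.3% were overlapped in 12 h replicate 2, against 71.4% and 58.5% in the 0 h lists.

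**Figure D1:**
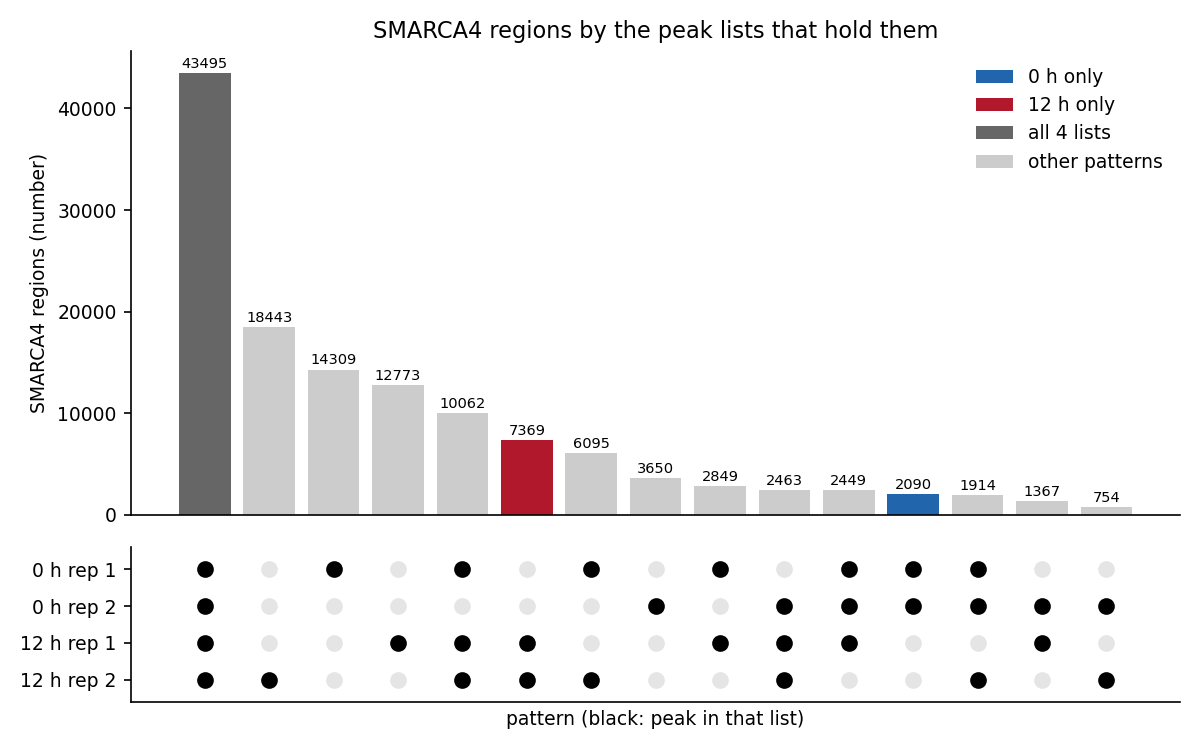
Number of SMARCA4 regions (y axis) for each of the 15 patterns of peak lists (x axis, black dots mark the lists with a peak). Regions in all 4 lists lead with 43495, the 12 h only pattern holds 7369 and the 0 h only pattern holds 2090.

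The excess of 12 h only over 0 h only regions was smaller with lists of equal length. With every list cut to its 70427 strongest peaks, there were 3397 regions of 0 h only and 3875 of 12 h only. Without 0 h replicate 2 there were 16649 and 9968, but a single 0 h list then defines 0 h only, which enlarges that class by construction. Peak names in the files come in a pair of styles, each with 1 library per time. Within the style that puts the target first (0 h replicate 1 and 12 h replicate 2) the counts were 23024 and 31363, and within the style that puts the time first they were 10493 and 39979. Among pairs with 1 list of each time, the target-first pair was the largest, with 6095 regions in those lists alone. The time-first pair had 1367, and the pairs across styles had 2849 and 754.

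Most time-restricted SMARCA4 regions were weak peaks. The median width was 526.5 bp for 0 h only, 538 bp for 12 h only and 1651 bp for regions in all lists. The strength of a peak was ranked within its own list by the authors' −log10 p, from 0 to 100. The median of the mean percentile over the lists was 29.6 for 0 h only, 32.6 for 12 h only and 69.7 for regions in all lists. Both lists ranked the peak at or above the 50th percentile at 109 regions of 0 h only (5.22%) and at 645 of 12 h only (8.75%). At or above the 75th percentile in both lists there were 2 and 34 regions. Regions of 12 h only were often beside regions that all lists share. Of them, 61.0% lay within 5 kb of such a region (median distance 2837 bp), against 43.4% of 0 h only (6612 bp) and 50.7% of the regions with other patterns (4838 bp).

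CTCF peaks lay in a larger share of the regions that lost the SMARCA4 peak than of those that gained one. Of the 0 h only regions, 440 of 2090 (21.1%, exact 95% interval 19.3 to 22.9) overlapped a 0 h CTCF peak. Of the 12 h only regions, 269 of 7369 (3.65%, 3.23 to 4.10) did. The share was 13.6% for the regions in all lists, 6.36% for the other patterns and 8.88% over all regions. These intervals, here and below, are Clopper-Pearson intervals that cover counting error only and treat regions as independent. The same regions shifted by 100 kb overlapped a CTCF peak in 2.01% (0 h only), 2.77% (12 h only) and 5.84% (all lists) of cases, since wider regions meet more peaks. Cohesin peaks, from the SMC1A library at 0 h, were met by 14.1% of 0 h only and 1.99% of 12 h only regions. They were met by 12.4% of regions in all lists, 3.79% of other patterns and 6.72% of all regions. A difference of the same direction was seen under each of the 12 settings tried, the main one included. The shares ranged from 10.7% to 24.5% for 0 h only and from 2.37% to 10.8% for 12 h only. Most 0 h only regions were far from CTCF all the same, with 56.1% of them more than 10 kb from any CTCF peak, against 53.05% of 12 h only and 56.4% of regions in all lists.

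Read by distance, the 0 h only share of SMARCA4 regions was 3.81% (3.47 to 4.18) where a region overlapped a CTCF peak. It was 1.81% (1.16 to 2.68) at a gap of 1 to 250 bp and 0.900% (0.504 to 1.48) between 250 and 500 bp. From there it stayed at 0.996% (500 bp to 1 kb), 0.821% (1 to 2 kb), 0.995% (2 to 5 kb) and 1.20% (5 to 10 kb). It was 1.53% at 10 to 100 kb and 1.87% beyond 100 kb. The 12 h only share ran the other way. It was 2.33% (2.06 to 2.62) at CTCF peaks and 8.50% (7.06 to 10.1), 9.12% (7.78 to 10.6) and 7.91% (7.01 to 8.88) in the 3 bins out to 1 kb. It then declined to 7.73% at 1 to 2 kb, 6.89% at 2 to 5 kb, 6.72% at 5 to 10 kb, 5.38% at 10 to 100 kb and 4.79% beyond. Regions just outside a CTCF peak were thus the ones with the highest 12 h only share, and those on it had the lowest. Regions in all lists made up 51.4% of the regions on a CTCF peak, against 23.0%, 26.3% and 26.7% in the 3 bins out to 1 kb.

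**Figure D2:**
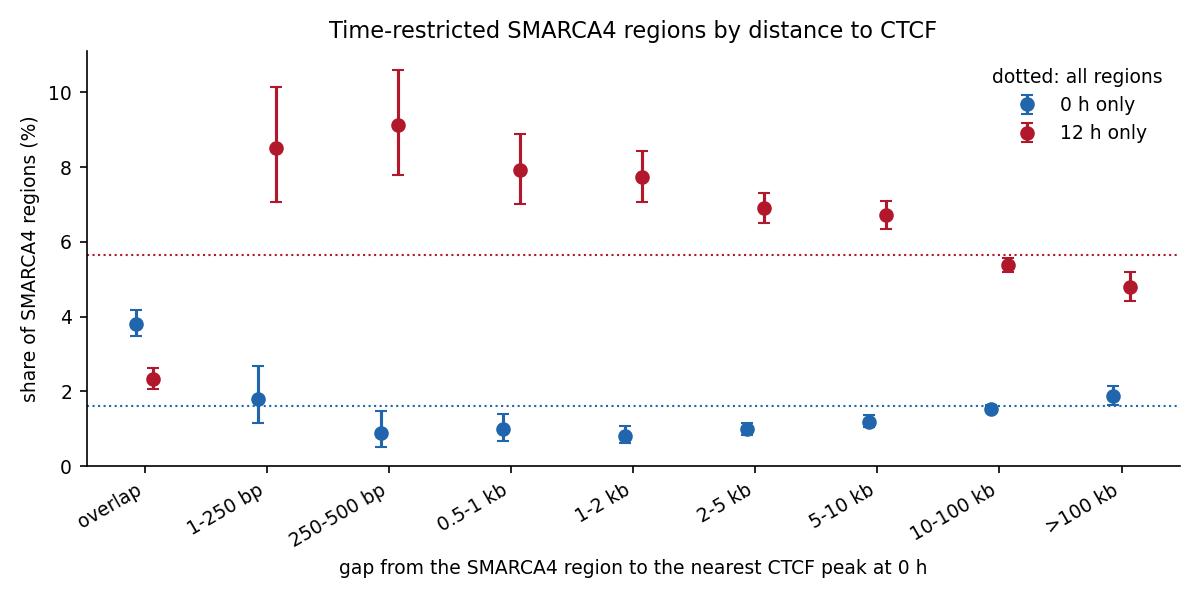
Share of SMARCA4 regions (y axis, %) that were 0 h only (blue) or 12 h only (red) by the gap to the nearest 0 h CTCF peak (x axis), with exact 95% intervals as bars and the share over all regions as dotted lines. The 0 h only share is highest at overlap (3.81%) and the 12 h only share peaks between 250 and 500 bp (9.12%).

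Among SMARCA4 regions on CTCF, the 0 h only share was lowest at the weakest CTCF peaks. With CTCF peaks split by −log10 q into 4 parts of equal size, from weakest to strongest, the 0 h only share was 1.45%, 3.68%, 4.87% and 4.29%, while the 12 h only share was 1.98%, 3.32%, 2.24% and 2.07%. Where the CTCF peak also had an SMC1A peak the 0 h only share was 4.57% (4.07 to 5.12), against 2.91% (2.47 to 3.40) where it had none. It was 3.87% where no CTCF peak remained at 12 h and 3.48% (2.65 to 4.47) where one did, and these intervals overlapped. The share also differed with the distance of the SMARCA4 region to a gene start. Among regions on CTCF that reached within 1 kb of a gene start, 80.3% were in all lists and 1.11% (0.797 to 1.51) were 0 h only. Among regions on CTCF away from starts, 38.4% were in all lists and 5.03% (4.56 to 5.53) were 0 h only. Regions on CTCF had a median width of 1999 bp in all lists and 523.5 bp in 0 h only, and no adjustment for width was made. Where both peaks of a region stood at or above the 50th percentile, the CTCF share of 0 h only regions was 37.6% (41 of 109), against 20.1% in the rest. The same split gave 5.27% (34 of 645) and 3.49% for 12 h only.

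The CTCF core was found under CTCF peaks at both kinds of region. It was searched within 100 bp of the summit of the strongest overlapping CTCF peak. It lay there at 53.4% (48.6 to 58.1) of the 440 regions of 0 h only with CTCF and at 45.0% (38.9 to 51.1) of the 269 of 12 h only. For these regions the first match on a strand also had to have 4 bases to either side inside the window. Around the summits of all 29926 CTCF peaks the share was 53.02%, counted without that condition. The matches of the 4 strongest regions of each class that had one are shown to let them be compared, each read in the direction of the core (capitals) with 4 bases on either side. The first 4 belong to 0 h only regions and the last 4 to 12 h only regions.
Strap: gtagCCACTAGATGGCgatc
Rimbp2: ggagCCTCTAGGTGGCacca
Kdm7a: atgtCCAGAAGAGGGCgtca
Dbt: acggCCAGAAGAGGGCgtcg
Akap7: gtggCCAGCAGGGGGCtctg
Spock1: tttcCCGGTAGAGGGCggac
Tatdn2: gtggCCAGGAGGGGGCagca
Blnk: gaagCCAGCAGGGGGCgcac
The Kdm7a and Dbt cores have the same letters, as do the Akap7 and Blnk cores. The authors' fold of these CTCF peaks at 0 h was 6.36, 15.7, 11.9 and 9.33 for the first 4 and 15.9, 6.14, 18.1 and 20.2 for the last 4. The strength of the CTCF peak did not separate the shown 0 h only from 12 h only sites.

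Neither class lay mainly at promoters. The summit was within 1 kb of a gene start, the start-site category, at 9.43% (8.21 to 10.8) of 0 h only and 8.74% (8.10 to 9.41) of 12 h only regions. Regions in all lists had 26.2% there, and the other patterns had 8.73%. Introns held 49.5% of 0 h only and 46.4% of 12 h only summits, and space between genes held 36.3% and 38.1%. Coding exons held 2.54% (1.91 to 3.30) and 3.46% (3.05 to 3.90), and untranslated exon parts held 1.29% (0.853 to 1.87) and 2.54% (2.19 to 2.92). In the start-site share both classes were close to the other patterns, while the coding exon share of 0 h only was close to the 2.37% of regions in all lists and below the 3.70% of the other patterns. The other patterns had 2.38% in untranslated parts. With CTCF the start-site share of whole regions was 9.09% (6.57 to 12.2) for 0 h only and 16.0% (11.8 to 20.9) for 12 h only. Without CTCF it was 11.6% and 10.4%.

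**Figure D3:**
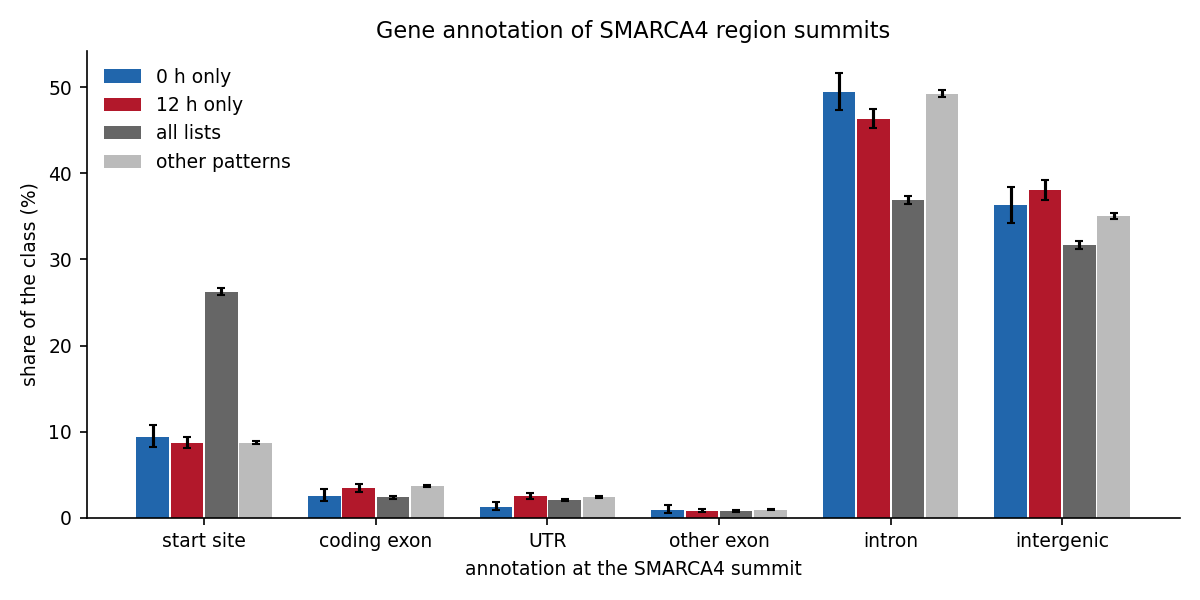
Share of each class of SMARCA4 regions (y axis, %) by the annotation of the region's summit (x axis), with exact 95% intervals as bars. Start sites hold 26.2% of regions in all lists and 8.73% to 9.43% of the other 3 classes.

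At the level of genes, 14791 of 21755 protein-coding start sites had a SMARCA4 peak of any list within 1 kb, and 11731 had one in all 4 lists. Only 100 starts (0.676% of those with a peak) were 0 h only and 239 (1.62%) were 12 h only. A 0 h CTCF peak lay within the same window at 22 of the 100 starts and at 24 of the 239 (10.04%), against 20.6% of the starts in all lists. The median distance from a region to the nearest protein-coding start was 26531 bp for 0 h only, 19871 bp for 12 h only and 16169 bp for regions in all lists.

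The strongest 0 h only region lay 20612 bp from the start of Ano10, a member of the anoctamin family, with folds of 10.1 and 11.1 in the 0 h lists and no peak in either 12 h list. It was 3325 bp from the nearest CTCF peak, and 2 of 6 libraries of the other remodelers had a peak there at 0 h and 3 of 6 at 12 h. The next, at chrX:8100750-8101305 near Was, an actin regulator of blood cells, had folds of 7.54 and 8.13. There, 4 of 6 other remodeler libraries had a peak at 0 h and 0 of 6 at 12 h. The third lay at the start of Med19, a Mediator subunit, at chr2:84678445-84679128, with folds of 7.79 and 5.94. All 6 libraries of the other remodelers had a peak there at both times. A second 0 h only region beside it, at chr2:84677320-84678084 by the start of Gm28635, overlapped a CTCF peak and had folds of 5.72 and 6.19. The Btf3 region had folds of 5.39 and 6.58. The 3 others among the 8 strongest were nearest to Gm4792, Fasl (a ligand that triggers apoptosis) and Chst10 (a sulfotransferase), with folds of 5.45 to 6.66.

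Further 0 h only regions within 1 kb of protein-coding starts were nearest to AU041133, Nol12, Dbt, Ppp1r11, Fam214a and Thg1l, in order of strength. The Fam214a region lay 170 bp from a region in all lists. Nol12 encodes a nucleolar protein, Dbt a subunit of the branched-chain keto acid dehydrogenase, Ppp1r11 a regulator of protein phosphatase 1 and Thg1l an enzyme that matures histidine tRNA. Their folds ranged from 4.14 to 7.09. In that group the Dbt region had a CTCF peak, and each of the 6 regions had peaks of other remodelers in at least 2 of 6 libraries at 12 h. Among 0 h only regions with CTCF, Strap and Rimbp2 lay between genes and the Lypd6b and Clec3a regions lay in introns of Kif5c and Vat1l. Peaks of other remodelers there went from 1 to 0 libraries of 6 (Strap), from 2 to 1 (Rimbp2), from 2 to 0 (Lypd6b) and from 5 to 0 (Clec3a).

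The strongest 12 h only region, in Akap7, had folds of 14.8 and 16.0 at 12 h, at the 97.1 and 98.5 percentiles of those lists. Other remodelers had a peak there in 2 of 6 libraries at 0 h and in 5 of 6 at 12 h. The Gm21887 region had folds of 6.97 and 6.68, and there the other remodelers had a peak in 4 of 6 libraries at 0 h and in 2 of 6 at 12 h. The region nearest to Myom2, which encodes a protein of the muscle sarcomere, had folds of 8.14 and 9.15 and lay 788373 bp from that start and 721 bp from a CTCF peak. The remaining regions of the top 8 were nearest to Dynlt1b (2 regions), Ngly1, Rp1 and Grhl2. Dynlt1b encodes a dynein light chain, Ngly1 a deglycosylating enzyme, Rp1 a photoreceptor protein and Grhl2 an epithelial transcription factor. Their folds ranged from 5.54 to 9.63, and at most 3 of 6 libraries of the other remodelers had a peak at any of them at either time.

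The strongest 12 h only regions within 1 kb of protein-coding starts were nearest to Cand2, Eps15l1, Ints11, Ndufb7, Afg3l1, Zfp984, Dchs1 and Pwp1. Other SMARCA4 regions can lie at the same starts. The Eps15l1, Ndufb7 and Afg3l1 regions lay 251, 222 and 254 bp from a region in all lists. Cand2 is known to bind cullins, Eps15l1 acts in endocytosis, Ints11 is the endonuclease of the Integrator complex, Ndufb7 is a subunit of respiratory complex I and Dchs1 is a large cadherin. Their folds ranged from 4.58 to 8.44. Only the Ndufb7 region overlapped a CTCF peak, and there 6 of 6 other remodeler libraries had a peak at 0 h and 5 of 6 at 12 h. At the other 7 regions the other remodelers already had peaks in 2 to 4 of 6 libraries at 0 h.

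Some genes were nearest to several time-restricted regions. Arl15, a small GTPase, had 7 regions of 0 h only among its 90, and Jarid2, an accessory subunit of Polycomb repressive complex 2, had 5 of 122. Tbx3, a naive pluripotency factor, had 5 of 105, and Abra and Ankrd55 had 4 each, of 25 and 27. For 12 h only, Sulf2, a sulfatase that trims heparan sulfate, had 15 of 112, and 1810013L24Rik and Epb41l4a had 14 each, of 118 and 104. Msi2, an RNA-binding protein, had 11 of 95 and Mycn, a MYC family factor, had 11 of 82. Of the 5 genes, Sulf2 and Msi2 had 0 regions of 0 h only. The counts are given beside each gene's total and carry no test. Over all regions 1.61% were 0 h only and 5.66% were 12 h only, and these genes were picked for their high counts.

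Gene lists were read by the regions nearest to their members, against shares of 1.61% (0 h only) and 5.66% (12 h only) over all regions. A region counted at a gene is one nearest to its start, and can lie within another gene. The 26 core and naive pluripotency factors had 861 regions, with 13 of 0 h only (1.51%) and 49 of 12 h only (5.69%), both near the shares over all regions. Within that list the genes differed. Prdm14, a repressor that guards the naive state, had 8 of its 44 regions 12 h only and 0 of them 0 h only. Those 8 lay 18415 to 61238 bp from the Prdm14 start, and their folds were 3.07 to 5.29 in 12 h replicate 1 and 3.08 to 6.88 in 12 h replicate 2. The strongest, at chr1:13093308-13093757, stood at the 70.5 and 85.2 percentiles of the 12 h lists and 213 bp from a region in all lists. Sox2 had 7 of 102 regions 12 h only and 1 of 102 regions 0 h only, and Pou5f1, which encodes OCT4, had none of either class among 8. Klf5 had 5 of 89 and Nanog 1 of 30 regions 12 h only.

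At their start sites, 23 of the 26 pluripotency factors had a SMARCA4 peak in all 4 lists, against 53.9% of all protein-coding starts and 79.3% of those with a peak. Esrrb, a nuclear receptor of the naive network, had a 12 h only region at its annotated start, at chr12:86361108-86361752. It was weak, with folds of 2.58 and 2.85 at the 6.49 and 12.4 percentiles. Esrrb had 3 further 12 h only regions, all in its introns, and the strongest of the 4 had a mean percentile of 19.8. Hdac8, the deacetylase of cohesin, had the other 12 h only start among the listed genes, with folds of 3.05 and 2.89. No listed gene had a 0 h only start. Over all starts with a peak 0.676% were 0 h only and 1.62% were 12 h only, so counts this small are near the background.

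The 12 LIF-STAT3 genes had 6 of 242 regions 0 h only (2.48%) and 16 of 242 regions 12 h only (6.61%), with Lifr, the LIF receptor, at 1 and 4. The 13 formative and primed genes had 5 and 16 of 232, with 4 of the 16 at Otx2, a factor of the formative state. The 17 mesoderm and endoderm regulators had 2 and 15 of 205, with 5 of the 15 at Hand1, a heart and trophoblast factor with 19 regions. The 14 neural regulators had 0 and 6 of 143, and the 14 Wnt targets had 2 and 12 of 174, with 3 of the 12 at Axin2, a feedback inhibitor of the pathway. The 12 Nodal and BMP targets had 6 and 16 of 309, with 3 of the 16 at Id2.

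The 16 Polycomb subunits had 12 of 366 regions 0 h only (3.28%), at Jarid2 (5), Mtf2 (3), Rybp (3) and Eed (1), and 16 of 366 regions 12 h only (4.37%). The 14 p53 targets had 5 of 130 regions 0 h only (3.85%). They were nearest to Mdm2, the ubiquitin ligase of p53 (2 of 11), Gadd45a (2 of 24) and Eda2r (1 of 2), and 7 of 130 regions were 12 h only. Of the 2 nearest to Mdm2, 1 lay in a coding exon of Cpm, 34743 bp from the Mdm2 start. Of the 2 nearest to Gadd45a, 1 lay in an intron of A430010J10Rik, 89175 bp from the Gadd45a start. The 28 SWI/SNF (BAF) subunits, SMARCA4's own complex, had 8 and 14 of 374, with Arid2 at 3 and 1. The 15 genes of CTCF and the cohesin machinery had 0 and 4 of 109 regions, the latter at Esco1 (2), Wapl (1) and Hdac8 (1). Of 11 genes near known CTCF boundaries, the 7 that are protein coding had 1 and 2 of 42 regions, all 3 at Zfp608. Over the 12 lists the 0 h only share ran from 0% to 3.85% and the 12 h only share from 3.67% to 7.32%, and the lists are small enough that single genes set these values.

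**Figure D4:**
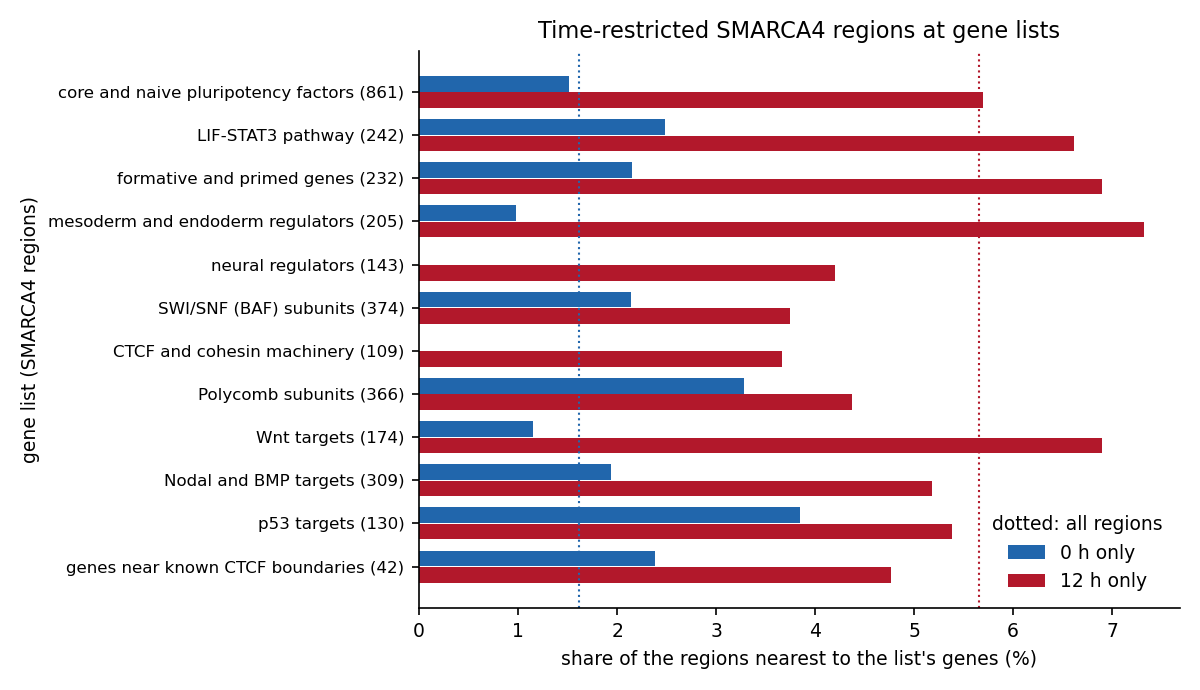
Share (x axis, %) of the SMARCA4 regions nearest to each list's genes (y axis, number of regions in brackets) that were 0 h only (blue) or 12 h only (red), with the shares over all regions as dotted lines. Most lists lie near the dotted lines, with p53 targets at 3.85% and Polycomb subunits at 3.28% for 0 h only.

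Along the genome the 0 h only share ran from 1.17% on chromosome 4 to 1.97% on chromosome 1. The 12 h only share ran from 3.67% on chromosome X to 6.75% on chromosome 7. Every chromosome thus had more 12 h only than 0 h only regions in these lists.

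Sequence under the summit, 201 bases wide, was searched on both strands for ZIC and 12 other motifs. In 10 of those 12 the share of windows was higher in 0 h only than in 12 h only, though most intervals overlapped. The ZIC motif CAGCAGG went the other way. It was in 8.56% (7.40 to 9.85) of 0 h only and 9.68% (9.01 to 10.4) of 12 h only windows, against 9.55% of all. The CTCF core was in 3.21% (2.49 to 4.05) of 0 h only windows, 1.52% (1.25 to 1.83) of 12 h only windows and 1.78% of all regions. With a CTCF peak the share was 10.9% (8.15 to 14.2) at 0 h only and 8.55% (5.50 to 12.6) at 12 h only regions, and without one it was 1.15% and 1.25%. The SOX motif ACAATGG was in 4.21% (3.39 to 5.16) of 0 h only and 3.01% (2.63 to 3.43) of 12 h only windows, against 3.14% of all. The TEAD motif ACATTCC was in 4.31% (3.48 to 5.27) and 3.16% (2.77 to 3.59), against 3.38% of all. The E-box CACGTG was in 4.59% (3.74 to 5.58) and 3.01% (2.63 to 3.43), against 3.73% of all. The OCT4 octamer ATGCAAAT was in 1.72% (1.21 to 2.38) and 1.36% (1.11 to 1.65), against 1.43% of all, and the AP-1 motif TGANTCA in 7.13% (6.06 to 8.32) and 6.38% (5.83 to 6.96), against 6.10% of all. The STAT motif TTCNNGGAA was in 3.73% and 3.32%, the YY1 motif AAGATGGC in 1.44% and 1.29%, the NRF1 motif GCGCATGCG in 0.191% and 0.0407% and the CCAAT box in 22.1% and 21.2%. The KLF motif GGGNGTGG, in 9.47% and 10.001%, and the ESRRB motif TCAAGGTCA, in 1.29% and 1.40%, had the lower share in 0 h only. Over all regions these 6 motifs were in 3.39% (STAT), 1.29% (YY1), 0.0861% (NRF1), 21.2% (CCAAT), 10.08% (KLF) and 1.32% (ESRRB) of windows. A match is a description of letters and not a bound site. Median GC content was 47.8% for 0 h only, 50.2% for 12 h only and 51.2% for regions in all lists. At least 5 CpG were present in 23.3% of 0 h only, 24.0% of 12 h only and 41.1% of the windows in all lists. Bases masked as repeats in the reference made up at least 50% of the window at 8.90% of 0 h only, 11.5% of 12 h only and 9.46% of regions in all lists.

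Whole libraries were compared to see if the SMARCA4 landscape as a whole moved. The share of SMARCA4 peaks that overlapped a 0 h CTCF peak was 10.6% and 9.84% in the 0 h libraries and 7.30% and 7.93% in the 12 h libraries. Both 0 h values lie above both 12 h values. The mean went from 10.2% ± 0.533 (SD, n = 2) to 7.61% ± 0.447 (SD, n = 2), a change of −2.60 points. The exact two-sided permutation p was 0.333, which is the smallest that 2 libraries against 2 allow. The share of SMARCA4 peaks within 1 kb of a gene start was 20.8% and 23.9% at 0 h and 21.3% and 21.5% at 12 h, and the 2 groups overlapped (change −0.985 points, exact permutation p = 1). The shortest list had the highest share, and the change was +1.17 points with lists of equal length and +0.557 points without 0 h replicate 2.

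Independent data on the time-restricted regions came from CHD4, CHD8 and SMARCA5, each with 2 libraries per time, in CTCF AID cells that carry that protein with the biotin tag. The measure was the log2 odds of a peak at the class regions against the regions in all SMARCA4 lists, which cancels a change of list length that acts on both alike. The CHD4 replicate 2 lists held more and narrower peaks than those of replicate 1. Their median widths were 119 bp (0 h) and 94 bp (12 h), against 433 and 475 bp. At 0 h only regions a CHD4 peak was present at 44.5% and 27.6% (0 h) and at 26.8% and 13.1% (12 h). A CHD8 peak was present at 19.4% and 14.6%, then at 12.8% and 11.7%. A SMARCA5 peak was present at 11.3% and 16.4%, then at 9.62% and 7.42%. For each remodeler both 12 h log2 odds lay below both 0 h log2 odds. The log2 odds fell by 0.92 on average, with a pooled replicate SD of 0.21. The changes were −0.98 for CHD4, −0.73 for CHD8 and −1.06 for SMARCA5. The exact stratified permutation p over 12 libraries was 0.00926, the smallest that 216 relabellings allow (0.0370 adjusted over 4 tests, Benjamini-Hochberg). With regions built from summits the change was smaller, −0.21 (exact permutation p = 0.0463). The other remodelers thus had relatively fewer peaks at 12 h at the regions where SMARCA4 peaks were lost.

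More than 10 kb from any CTCF peak, the 1172 regions of 0 h only gave a smaller change of −0.31 (exact permutation p = 0.0185, adjusted 0.0370). Here the change was −0.45 for CHD4, −0.24 for CHD8 and −0.25 for SMARCA5, and the libraries of the 2 times were separate for CHD4 and SMARCA5 but not for CHD8. The mean share of class regions with a peak went from 29.6% to 21.1% for CHD4. It went from 11.2% to 11.3% for CHD8 and from 7.68% to 7.72% for SMARCA5, while in the reference regions the share rose from 46.0% to 50.7% and from 41.4% to 45.7%. For CHD8 and SMARCA5 the change in odds therefore came from the reference. Against regions with a peak in 1 SMARCA4 list of each time, a reference chosen after the data were seen, the change was −0.28 (exact permutation p = 0.130), and with no reference it was −0.21 (exact permutation p = 0.537). With regions built from summits it was −0.04 (exact permutation p = 0.713). The call away from CTCF thus depended on the reference and on how regions were drawn.

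At 12 h only regions the log2 odds changed by +0.29 (exact permutation p = 0.157, adjusted 0.185). SMARCA5 changed by +0.59 and its libraries were separate, CHD4 changed by +0.40 with overlapping libraries and CHD8 by −0.12, also overlapping. A SMARCA5 peak was present at 5.69% and 10.1% of these regions at 0 h and at 13.4% and 12.7% at 12 h. A CHD4 peak was present at 28.4% and 22.9%, then at 39.2% and 18.2%. A CHD8 peak was present at 15.1% and 9.68%, then at 15.5% and 10.3%. More than 10 kb from CTCF the change at 3909 regions was +0.30 (exact permutation p = 0.185, adjusted 0.185). The call depended on the reference. Against all other SMARCA4 regions the change over all 12 h only regions was +0.34 (exact permutation p = 0.0370), and away from CTCF it was +0.33 (exact permutation p = 0.0556). Against regions with 1 list of each time it was +0.47 (exact permutation p = 0.00926), or +0.34 away from CTCF (exact permutation p = 0.00926). With no reference it was +0.36 (exact permutation p = 0.296), or +0.41 away from CTCF (exact permutation p = 0.241). With regions built from summits it was +0.087 (exact permutation p = 0.528), or +0.080 away from CTCF (exact permutation p = 0.574). A gain of other remodelers at 12 h only regions was therefore not separated from replicate spread in the main test.

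**Figure D5:**
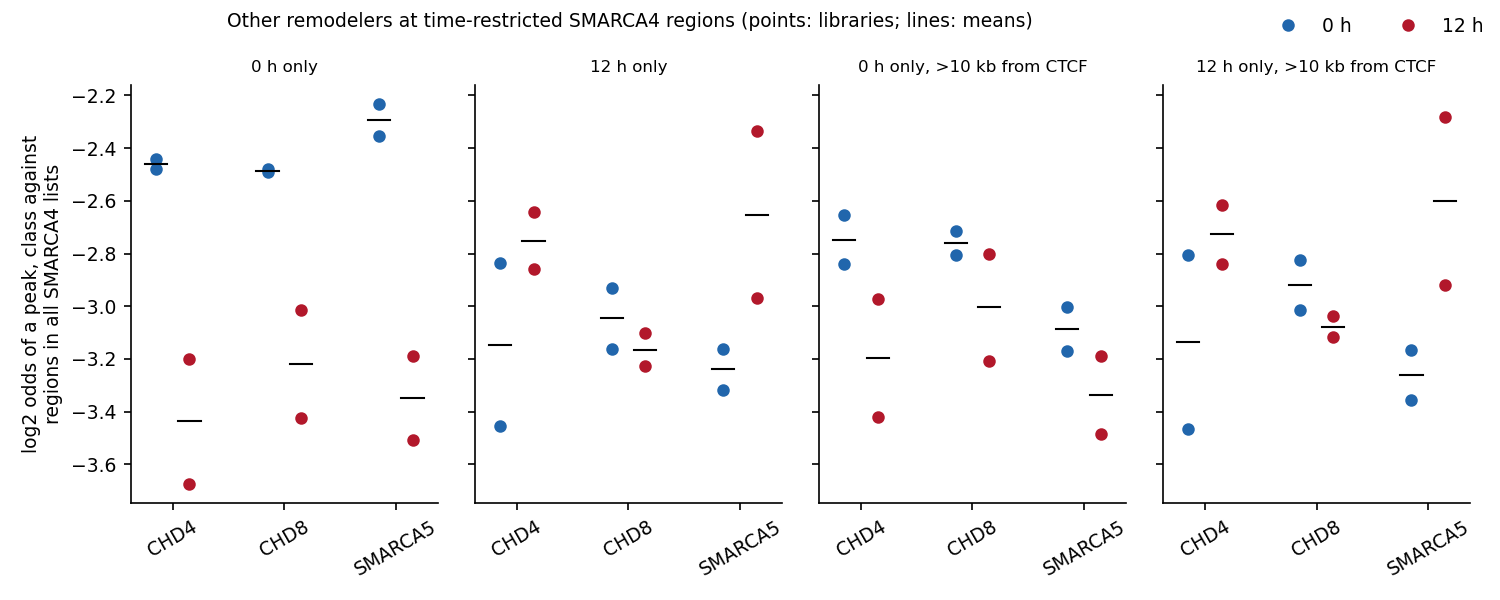
Log2 odds of a CHD4, CHD8 or SMARCA5 peak at a class of SMARCA4 regions against regions in all SMARCA4 lists (y axis), by remodeler (x axis), with 1 point per library (blue 0 h, red 12 h) and lines for means of 2 libraries. In the first panel all 6 of the 12 h points lie below all 6 of the 0 h points.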

How the data were processed

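The deposited files are 1 peak list per sample in the narrowPeak layout, with 10 columns and no header, and replicates had not been pooled. The submitters' processing notes name Trim Galore, Bowtie2, MACS2, deepTools, mm10 and hg38, without roles or versions. Per the labels, crosslinked chromatin was sonicated to fragments and immunoprecipitated, and the antibody for biotin-SMARCA4 is not given in the sources used here. Each peak's fold (a ratio to background), −log10 p and −log10 q are values the authors deposited, and no fold was compared between lists as a change in binding. The lowest −log10 q in the SMARCA4 lists was 1.30. The coordinates fit GRCm38, and gene starts come from the GENCODE M21 basic annotation (1 start per gene).

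A start-site window was 1 kb to either side. Percentiles are by −log10 p within a list, and the region summit is that of the peak with the highest percentile. Tests on libraries were two-sided exact permutation tests, stratified by remodeler for CHD4, CHD8 and SMARCA5, with 0.5 added to each cell of the odds ratio and Benjamini-Hochberg adjustment over 4 tests. Comparisons between classes are descriptions with Clopper-Pearson intervals. Functions were tested on simulated lists with known classes. The regions, gene lists and motifs were chosen with earlier results of these data known. Named regions are the 8 strongest of a class, the 8 strongest at protein-coding starts, the 5 genes nearest to most regions of a class, and list members. The strongest with CTCF, and Prdm14 and Hand1 within their lists, were picked out after their values were seen. Replicate numbers did not pair the libraries (correlation of deviations −0.06 over 130082 regions). Alternatives are in the closing section. Peaks on chromosome Y (1 to 4 per SMARCA4 list) and the input samples were not analysed here. Python 3.11.15, numpy 2.4.6, pandas 2.3.3, scipy 1.17.1, pysam 0.24.0 and matplotlib 3.10.9 were used.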

Additional observations from a re-analysis of the deposited data

Results flagged for a closer look

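At 12 h only regions more than 10 kb from CTCF, the log2 odds for CHD8 and SMARCA5 moved in opposite directions. The libraries of the 2 times did not overlap for either remodeler. The log2 odds of a peak against regions in all SMARCA4 lists changed by −0.16 for CHD8 and by +0.66 for SMARCA5, a difference of −0.82. The difference itself was not tested. The mean share of these regions with a CHD8 peak went from 10.3% to 11.0%, while in the reference it rose from 46.0% to 50.7%. The fall in CHD8 odds therefore came from the reference. For SMARCA5 the share of these regions went from 7.05% to 12.2%. Against regions with a peak in 1 SMARCA4 list of each time, the CHD8 log2 odds were 0.025 and 0.040 at 0 h. They were 0.24 and 0.14 at 12 h.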

How the results depend on the processing

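The CTCF share stayed higher in 0 h only than in 12 h only regions under all 12 settings, and other results moved as follows. The numbers of 0 h only and 12 h only regions were 3397 and 3875 with equal list lengths, 10493 and 39979 within the time-first name style, and 23024 and 31363 within the target-first style. A −log10 q of at least 5 in the SMARCA4 lists left 3755 regions of 12 h only, and regions from summits gave 5509 of 0 h only. Leaving out 1 SMARCA4 library gave 4181 to 16649 regions of 0 h only and 9968 to 27301 of 12 h only, since 1 list then defines a time or its absence. The CTCF share of 0 h only regions was 18.2% (q filter), 17.99% (equal lengths), 12.8% (summits), 12.4% and 10.7% (time-first and target-first style), 24.5% (within 1 kb) and 12.2% to 19.4% (1 library left out). That of 12 h only regions was 6.52% (q filter), 5.03% (equal lengths), 10.8% (within 1 kb) and 2.37% to 5.56% (1 library left out). The start-site share of 0 h only regions was 17.2% (q filter), 14.5% (equal lengths), 16.5% (summits), 9.28% (target-first style), 7.08% (protein-coding starts) and 8.82% to 13.6% (1 library left out). That of 12 h only regions was 16.1%, 13.2%, 18.04%, 9.80%, 6.19% and 8.66% to 14.6% in the same order, and 11.7% within the time-first style. For the other remodelers at 0 h only regions, leaving out CHD4, CHD8 or SMARCA5 gave changes of −0.89, −1.02 and −0.85, each with an exact permutation p of 0.0556, the smallest that 2 remodelers allow. Far from CTCF these were −0.25, −0.35 and −0.35, and the change was −0.036 with regions from summits, −0.21 with no reference and −0.28 against regions in 1 list of each time. At 12 h only regions the change passed the threshold at +0.34 against all other SMARCA4 regions and at +0.47 against regions in 1 list of each time, and far from CTCF at +0.34 against the latter. The reference of regions in 1 list of each time and the use of no reference were chosen after seeing the data. Regions from summits gave −0.21 at 0 h only, +0.087 at 12 h only and +0.080 at 12 h only far from CTCF. Without 1 SMARCA4 library the changes ranged from −0.66 to −0.57 (0 h only), −0.31 to −0.21 (0 h only, far), 0.12 to 0.25 (12 h only) and 0.15 to 0.27 (12 h only, far). The change in the start-site share of a library turned to +0.206 points with the q filter and +1.17 points with equal lengths, and ranged from −2.53 to +0.557 with 1 library left out, while the CTCF share of a library changed by −2.98 to −2.23. A replicate block, for numbers that do not pair the libraries, gave exact permutation p of 0.0312 and 0.0312 for −0.92 and −0.31 at 0 h only regions, 0.156 and 0.188 for +0.29 and +0.30 at 12 h only regions, and 0.5 and 1 for −2.60 and −0.985 points in the library shares, and changed no call. Depth is unknown, so a weak peak missing from a list may be a matter of calling.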
